A study of Mus musculus with 7 samples.

Results

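CTCF binding in mouse brain was compared with CTCF binding in 2,700,000 mouse liver cells, called liver cells here, with 1 ChIP-exo 5.0 library on each side. All listed peaks on the 19 autosomes were taken, without the mitochondrial genome, unplaced contigs and 46 bins of 10 kb that held 20 or more peaks in both libraries. This left 284905 brain peaks and 1331517 liver cell peaks, or 1616422 of the 2603994 peaks listed in the 7 libraries of the series. ChIP-exo trims immunoprecipitated DNA with a 5′ to 3′ exonuclease, so that each sequenced tag marks the base at which the enzyme stopped beside the crosslinked protein, on either strand. The brain library came from 100 mg of brain of wildtype adult male mice aged 16 weeks. The other library was a part of a titration of liver cells of the same labelled genotype, whose cell numbers were estimated from wet weight. The other libraries were lung, kidney, liver organ, and 270,000 and 27,000 liver cells. The labels name a CTCF antibody (Millipore 07-729) but their extraction protocol names IgG, and they give 0.3% formaldehyde where the methods give 1%. Brain and liver hold many cell types, and fewer cells of a type cannot be told apart from less binding per cell.

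CTCF is a DNA-binding protein with an array of zinc fingers. It occupies insulators and the borders of chromatin domains, where it holds the cohesin ring, and it binds most of its sites in many cell types. Some of its sites lie at promoters, and some are bound in only some tissues. The core of its recognition sequence has a direction, so that exonuclease stops can be placed along it.

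With 1 library on each side there was no replicate check, no test was possible and no p-value is given. Intervals are 95% intervals, Wilson for shares and exact for ratios, and cover counting error only. A site was a forward peak with a reverse peak 10 to 80 bp downstream in either library, its level was the sum of tags within 100 bp on each side of its centre, and scaled tags are tags per 1000000 tags listed in a library. The lists hold peaks of at least 2 tags, so 0 tags means that no peak was listed there.

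Promoters that the results turn on are shown with up to 40 bases on each side of the site, or of the match for Rapgef1, Nsfl1c and Otud3, from the 250 bases before the farthest upstream start of the gene (RefSeq, GRCm38.p6, the coordinates of mm10), 5′ to 3′ on the gene's strand. Capitals mark a match to the core of the CTCF recognition sequence, searched on both strands as CCA, any 2 bases, AG, any 2 bases and GGC. Of 31365 promoter windows of 300 bases, 775 (2.47%) held such a match. The promoters of Lsamp, Scaf11 and Fntb had the highest brain to liver cell ratios and those of Ddx18, Nectin2 and Tchp the lowest. Adprhl2, Sh3gl1 and Sh3glb1 had the highest level in both libraries, and Rapgef1, Nsfl1c and Otud3 followed Adprhl2 in brain tags at a match.
Lsamp, chr16:39984260-39984340, forward strand: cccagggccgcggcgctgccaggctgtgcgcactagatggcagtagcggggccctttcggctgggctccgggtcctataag
Scaf11, chr15:96460947-96461027, reverse strand: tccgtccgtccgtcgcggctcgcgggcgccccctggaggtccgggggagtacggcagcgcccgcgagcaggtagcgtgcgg
Fntb, chr12:76837278-76837358, forward strand: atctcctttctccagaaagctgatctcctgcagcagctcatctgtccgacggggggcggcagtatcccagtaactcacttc
Ddx18, chr1:121568002-121568082, reverse strand: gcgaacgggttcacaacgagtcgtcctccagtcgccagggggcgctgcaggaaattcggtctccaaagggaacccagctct
Nectin2, chr7:19749703-19749783, reverse strand: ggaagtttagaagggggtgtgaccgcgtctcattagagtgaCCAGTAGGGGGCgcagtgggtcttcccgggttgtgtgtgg
Tchp, chr5:114707700-114707778, forward strand: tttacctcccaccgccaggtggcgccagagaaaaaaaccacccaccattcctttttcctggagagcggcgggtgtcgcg
Adprhl2, chr4:126321710-126321790, reverse strand: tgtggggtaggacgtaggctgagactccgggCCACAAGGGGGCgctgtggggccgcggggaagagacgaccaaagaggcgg
Sh3gl1, chr17:56036701-56036781, reverse strand: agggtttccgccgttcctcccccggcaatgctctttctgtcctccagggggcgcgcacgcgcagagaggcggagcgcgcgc
Sh3glb1, chr3:144720430-144720510, reverse strand: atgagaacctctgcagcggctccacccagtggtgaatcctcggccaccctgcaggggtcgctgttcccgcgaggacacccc
Rapgef1, chr2:29619651-29619719, forward strand: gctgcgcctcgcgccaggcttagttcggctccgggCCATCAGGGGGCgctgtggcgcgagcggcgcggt
Nsfl1c, chr2:151494087-151494167, forward strand: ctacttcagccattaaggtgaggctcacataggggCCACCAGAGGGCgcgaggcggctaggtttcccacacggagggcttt
Otud3, chr4:138914058-138914138, reverse strand: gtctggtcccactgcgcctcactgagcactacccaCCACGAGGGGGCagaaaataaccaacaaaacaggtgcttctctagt

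The libraries differed in depth and in make-up. Brain held 1032833 listed tags and liver cells 6592538, which is 6.38 times as many. In brain, 85.0% of the peaks had all of their tags at 1 position (a listed standard deviation of 0), against 33.7% in liver cells. Such single-position peaks held 71.9% of brain tags and 14.8% of liver cell tags. The peaks whose tags were spread over more than 1 position numbered 42693 in brain, with 151210 tags, and 883436 in liver cells, with 4810510 tags. The excess of single-position peaks was shared by the other libraries, where they made up between 79.6% (liver organ) and 94.5% (27,000 liver cells) of peaks.

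Spread peaks of brain fell at the same bases as liver cell peaks far more often than single-position peaks did. A liver cell peak on the same strand lay within 10 bp of 53.4% of brain spread peaks (interval 52.9 to 53.8%), and of 1.05% of them when they were moved by 5 kb. The share rose with the tags in the peak, from 43.8% of peaks of 2 tags to 86.2% (75.7 to 92.5%) of the 65 peaks of 20 tags or more. Of brain single-position peaks, 6.01% were matched, and 0.696% when moved. This share hardly rose with tags, and was 6.84% (6.57 to 7.13%) for the 32142 single-position peaks of 5 tags or more, against 65.9% for the 9463 spread peaks of 5 tags or more. A brain single-position peak lay within 100 bp of a liver cell pair in 9.09% of cases and a spread peak in 74.1%. Single-position peaks were therefore treated apart, and the levels below are of spread peaks.

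**Figure D1:**
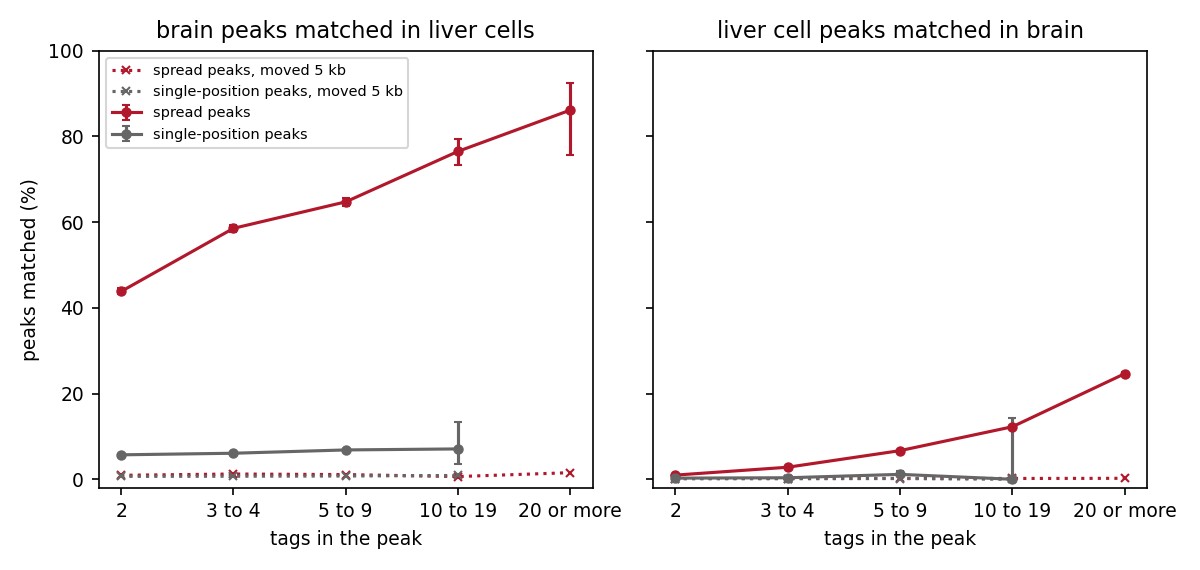
Share of peaks with a peak of the other library on the same strand within 10 bp, by tags in the peak, for spread and single-position peaks (points, bars are 95% Wilson intervals; crosses are the same peaks moved by 5 kb; classes under 20 peaks are left out). Brain spread peaks rise from 43.8% to 86.2% while brain single-position peaks stay between 5.70% and 7.08%.

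Almost every brain pair fell on a place that liver cells also occupied. Brain gave 6851 pairs and liver cells 170114. At the 4801 sites made from brain pairs alone, liver cells held spread tags at 4768 (99.3%, 99.0 to 99.5%), against 294 of the same windows moved by 5 kb. All 701 brain sites of 20 tags or more held liver cell tags, with a median of 147. In the other direction brain coverage followed the liver cell level. Sites made from liver cell pairs alone were ranked by tags and divided into 10 equal groups. Of the group with most tags (median 200), brain held tags at 69.4% (68.1 to 70.6%). In group 5 (median 40) it held tags at 24.2%, and in group 10 (median 5) at 2.68%, where windows moved by 5 kb gave 0.465%. The brain tags per 1000 liver cell tags lay between 30.3 and 42.8 in the 7 upper groups and between 19.8 and 25.1 in the 3 lower ones, where a listed peak needs 2 tags.

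Of 53828 sites, 17211 reached 10 scaled tags in at least 1 of the libraries. The median site had a log2 ratio of brain to liver cells of -2.08, that is 4.23 times fewer scaled tags in brain. This offset moves with the scaling, since liver cells have 73.0% of their tags in spread peaks and brain 14.6%, and it reached 0.65 when levels were scaled to spread tags. Sites were therefore called by their distance from the median, at more than 4 fold. Brain was higher at 1458 sites (8.47% of those tested) and lower at 129 (0.75%). These calls rest on the ratio itself, not on its interval. The intervals of all called sites lay clear of the median. They lay wholly past 4 fold at 612 of the higher sites and at 0 of the lower sites. The chance to be called was unequal. A site tested through brain alone had 11 or more brain tags and under 66 liver cell tags, which always gave a higher call. Of the tested sites, 3454 reached 10 scaled tags in brain, 2750 of them in liver cells too. Brain had fewer than 3 tags, the floor of the ratio, at 8594 tested sites, so that a site needed at least 324 liver cell tags to be called lower, and 399 sites had that many. In the higher sites brain held a median of 16 tags and liver cells 66.5, and in the lower sites liver cells held a median of 362 while brain held none at 77 of the 129 and at most 5. In sites not called the medians were 2 in brain and 119 in liver cells. Brain single-position tags lay in 60 of the lower sites, and 43 had no brain peak of either kind.

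**Figure D2:**
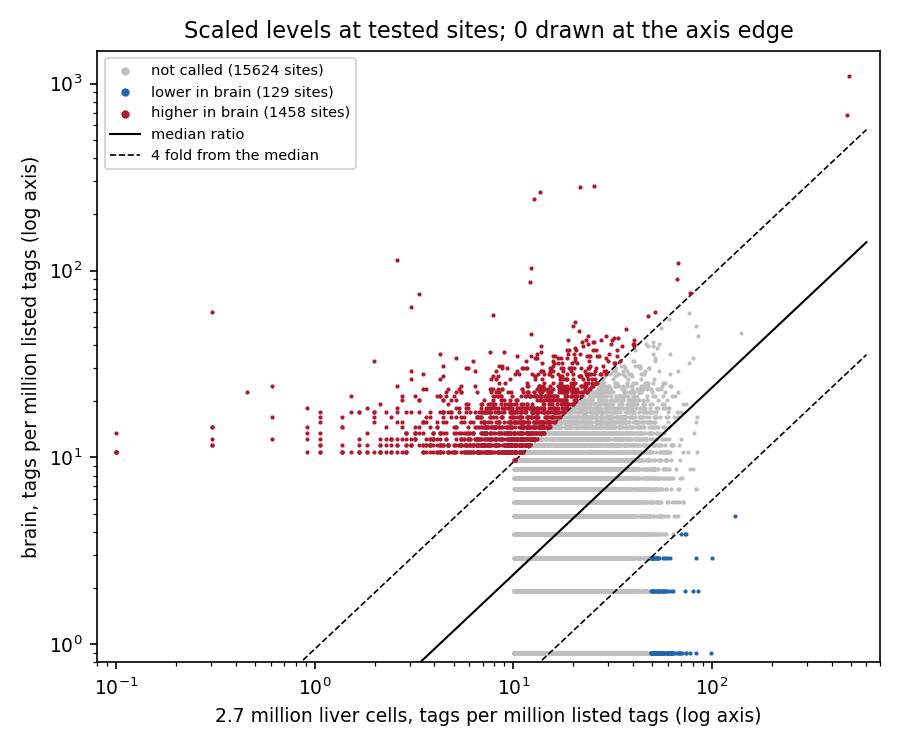
Brain level against liver cell level at the 17211 tested sites, in scaled tags (tags per 1000000 listed tags) on log axes, each point 1 site, with the median ratio (solid) and 4 fold from it (dashed). The 129 lower sites (blue) lie at the right lower edge, where liver cells held 324 tags or more, and the 1458 higher sites (red) spread over all liver cell levels.

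The most uneven sites fell into separate kinds when the remaining libraries were read. Higher sites were ranked by the bound of the interval nearer to the median, with at most 1 site for a protein-coding gene. At the site in Tyw1, which encodes an enzyme of transfer RNA modification, brain had 118 tags and liver cells 17, a log2 ratio 7.55 above the median (6.81 to 8.38). The same 200 bp held 86 tags in lung, 189 in kidney and 111 in liver organ, but none in 270,000 liver cells. Beside Crebzf, a leucine zipper regulator of transcription, brain had 249 tags and liver cells 84, with 265 in lung, 388 in kidney, 311 in liver organ and none in 270,000 liver cells. Zrsr1, an imprinted gene for a splicing factor within Commd1, showed 77 tags in brain and 22 in liver cells. Its counts in lung, kidney and liver organ were 80, 130 and 68, again with none in 270,000 liver cells. Sites in Gm17660, Tiam2, Sh3bgrl2 and Dop1b and near BC048403 were of this kind too, with 20 tags or more in each of lung, kidney and liver organ. In 270,000 liver cells the last 5 sites had 27 tags near BC048403, 4 in Dop1b, 2 in Tiam2 and none in Gm17660 or Sh3bgrl2. All 8 thus held tags in every organ library, liver organ included, and 5 of them had none in 270,000 liver cells.

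Another kind was seen in brain with little elsewhere. In Cadm2, which encodes a synaptic adhesion protein, brain had 23 tags and liver cells 3, a log2 ratio 7.69 above the median (5.97 to 10.1). Lung, liver organ and 270,000 liver cells had no tags there and kidney 2. In Psd3, an exchange factor for Arf6, brain had 14 tags and no other library any, which is at least 126-fold above the median ratio at the floor of 3 liver cell tags. The potassium channel gene Kcna10 had 15 brain tags and 2 liver cell tags in a window with 10 brain single-position tags besides. Near the zinc transporter gene Slc30a5 brain had 17 tags and liver cells 4. Of the 1458 higher sites, 260 (17.8%) had no tags in lung, kidney, liver organ or 270,000 liver cells, and 170 (11.7%) had tags in all 4. The same shares over all tested sites were not counted, so neither share can be read as a trait of higher sites. Tags were listed in lung at 32.4% of all tested sites and 52.7% of higher sites. For kidney these were 25.6% and 41.0%, for liver organ 23.9% and 38.1%, and for 270,000 liver cells 50.6% and 51.2%. Higher sites thus did not lack tags in these libraries more often than all tested sites did. They did lack them more often than sites not called with 10 or more scaled brain tags, as given below. Under the same ranking, these 260, a set formed after the values were seen, went on with Il21, Psmd11, Cog4, Opcml and Lsamp. Opcml and Lsamp are neuronal adhesion proteins of the IgLON family. Opcml had 11 brain tags and no liver cell tags, and Lsamp 17 and 7.

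Of the 129 lower sites, 121 held tags in 270,000 liver cells, but only 4 did in the smallest liver cell library. Liver organ, lung and kidney were much alike, with tags at 30.2%, 31.0% and 33.3% of the lower sites. The strongest lay 12462 bp from Hjurp, a centromere chaperone, and near the Ugt1a genes, with 3 brain tags and 663 liver cell tags, a log2 ratio 3.03 below the median (interval -5.31 to -1.48). There 270,000 liver cells had 38 tags, liver organ 15, kidney 3 and lung none, and brain had 13 single-position tags. The site in 0610040J01Rik had 550 liver cell tags and none in brain, at least 6.79-fold below the median ratio, with 20 tags in 270,000 liver cells, 16 in lung and none in liver organ or kidney. In Kirrel, a membrane protein of the slit diaphragm family, liver cells had 490 tags, brain no spread and 5 single-position tags, and lung 28. Sites in Mtarc1 and near Enpp7 and Nenf had 457, 465 and 452 liver cell tags and no brain peak, and 28, 23 and 24 tags in 270,000 liver cells. Further sites lay in or near Zfp992, Zfp978, Speer4c, Gm10354 and Sfi1. Several of these belong to families with near-identical copies, and tags can be lost or shared between copies.

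**Figure D3:**
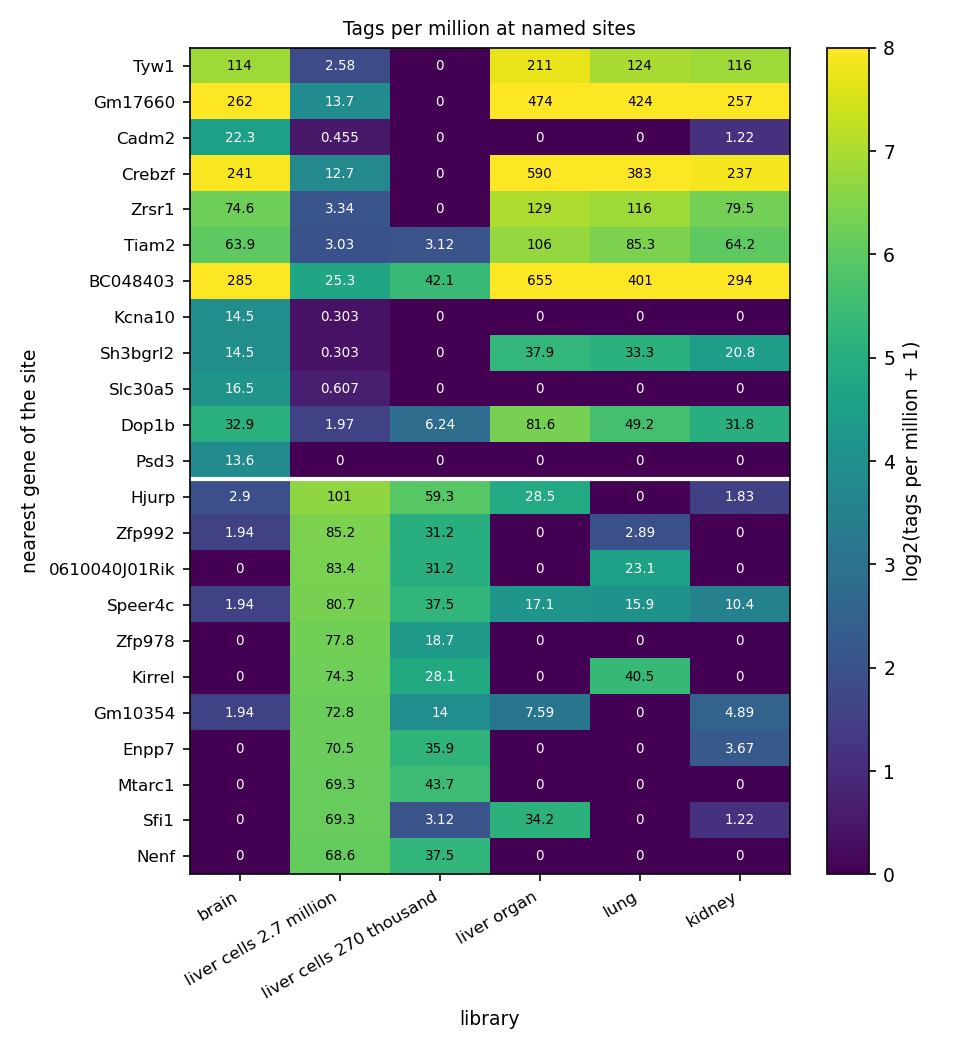
Scaled tags (tags per 1000000 listed tags) at the 12 higher (above the white line) and 11 lower sites, in 6 libraries (columns; colour is log2 of scaled tags plus 1; 27,000 liver cells are left out). Of the 12 higher sites, 8 hold at least 20 scaled tags in each of lung, kidney and liver organ, and the lower sites shown hold between 3.12 and 59.3 scaled tags in 270,000 liver cells.

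Over all called sites the other libraries were counted by whether they listed tags. For the 129 lower sites, the fitting reference is the 264 sites not called that also had 324 or more liver cell tags. In 270,000 liver cells 93.8% (88.2 to 96.8%) of the lower sites held tags, against 98.1% (95.6 to 99.2%) of these. In liver organ the shares were 30.2% (23.0 to 38.6%) and 48.5% (42.5 to 54.5%), in lung 31.0% and 54.9%, and in kidney 33.3% and 56.4%. For the higher sites, the fitting reference is the 2002 sites not called that also had 10 or more scaled brain tags. In 270,000 liver cells 51.2% (48.6 to 53.7%) of the higher sites held tags, against 79.6% (77.7 to 81.3%) of these. In lung the shares were 52.7% and 62.5%, in kidney 41.0% and 51.0%, and in liver organ 38.1% and 45.2%. The shares at lower sites thus lay under their reference in every organ library, liver organ included. Higher sites lay under theirs in all 4 libraries. Their reference was chosen only by a threshold of 10 scaled brain tags, and its mean scaled brain level was 15.0 against 19.7. By the calling rule it had more liver cell tags (mean scaled level 28.7 against 11.7). The gap in 270,000 liver cells is thus in part set by that rule. The paper estimated the liver cell numbers from the wet weight of tissue, in its section on mouse tissue. It describes no isolation of liver cells, so the titration is taken here as liver tissue. What sets the titration libraries apart from liver organ was not tested.

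The sites with the highest level in both libraries held tags in the organ libraries and in 270,000 liver cells too. A site 137494 bp from Rab10 had 1132 brain and 3229 liver cell tags, and a site in Chl1 701 and 3152. Liver organ held 1113 and 1558 tags at these and 27,000 liver cells 63 and 70. The others lay near Dpy19l2, 2210408I21Rik, Tnc and 9530057J20Rik, with 61 to 113 brain tags. Lung had only 2 tags near Dpy19l2, and 27,000 liver cells had none near 9530057J20Rik. Of the 6, 5 were called higher in brain. In scaled tags, the site near Rab10 had 490 in liver cells, 1096 in brain, 2112 in liver organ and 1770 in 27,000 liver cells. For the site in Chl1 these were 478, 679, 2956 and 1967. Lung lay below liver cells at both sites, with 479 and 435. Whether tags from near-identical copies gather at these sites was not tested, so the calls may not reflect CTCF binding.

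Closeness to a transcription start set sites higher in brain apart. Starts were those of the promoter windows of protein-coding genes, and chromosome 18 was not used here. The windows lacked other starts too. On chromosome 1 a site 113 bp from the gene Tram1 had its nearest listed start 4555879 bp away. The far bins may therefore hold sites that lie near a start. Of 785 tested sites within 1 kb of a start, 222 (28.3%, 25.2 to 31.5%) were higher in brain and 1 was lower. From 1 to 5 kb 8.78% were higher, and beyond 100 kb 6.87% (6.09 to 7.74%). These shares include sites tested through brain alone, which were higher by the calling rule. The median brain tags fell from 9 within 1 kb to 4, 3, 2 and 0 in the bins of growing distance, whereas the liver cell medians were 95, 113, 120, 117 and 110. At the same liver cell level the difference remained. Among sites of 66 to 99 liver cell tags, brain had tags at 77.2% (72.3 to 81.5%) of 316 sites within 1 kb of a start and at 43.6% (42.3 to 44.9%) of 5517 sites farther away. Among sites of 150 to 249 liver cell tags these shares were 87.5% and 65.7%. Sites made from brain pairs alone showed a narrower gap, with 9.21% near starts and 6.0% farther away higher in brain. Brain single-position tags had means of 2.30 a site within 1 kb and 1.76 beyond 100 kb.

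**Figure D4:**
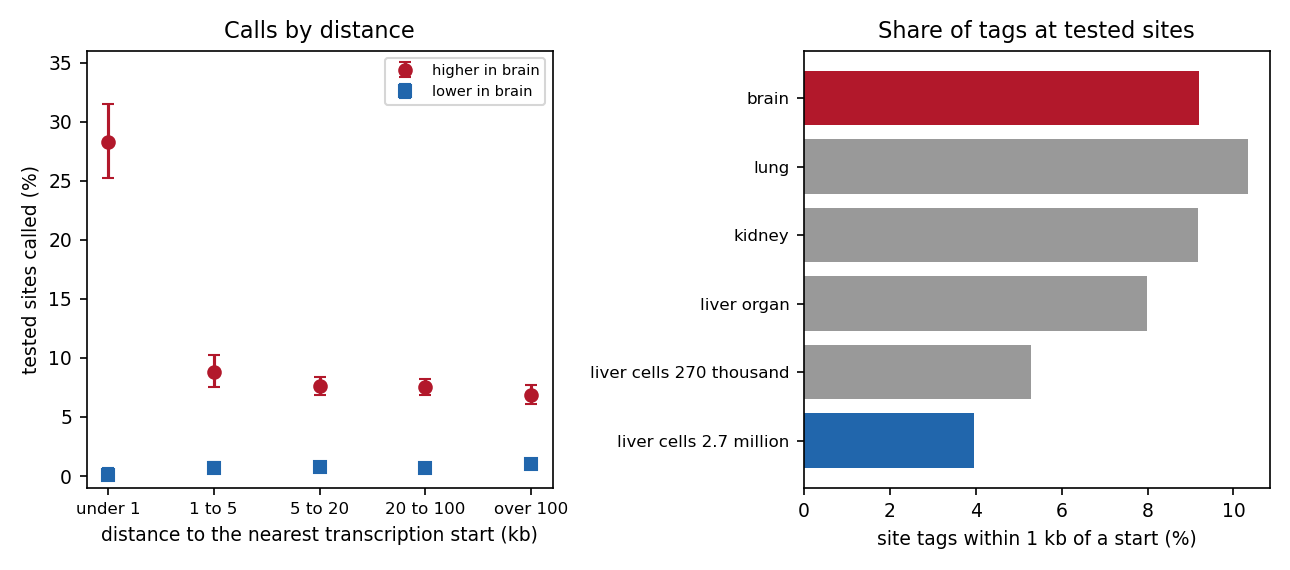
Left, share of tested sites called higher (red) or lower (blue) in brain by distance to the nearest transcription start in kb, with 95% Wilson intervals; right, share of all tags at tested sites that lay within 1 kb of a start, for 6 libraries. Higher calls reach 28.3% within 1 kb, and the share of tags is 9.20% in brain and 3.97% in 2,700,000 liver cells. Higher calls include sites tested through brain alone, and starts missing from the promoter windows are not counted.

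The lean toward starts was common to the organs. Of the tags at tested sites, 9.20% lay within 1 kb of a start in brain. The share was 10.3% for lung, 9.18% for kidney and 8.0% for liver organ. In 2,700,000 and 270,000 liver cells the shares were 3.97% and 5.29%. Tested sites centred in the 250 bases before a start numbered 365, of which 133 (36.4%) were higher in brain and none was lower. They include sites tested through brain alone, such as Lsamp, Scaf11 and Fntb. The promoter of Lsamp, shown above, had the highest ratio, 6.04 above the median on the log2 scale (4.69 to 7.55), with no tags in the other 5 libraries. At Scaf11, a splicing regulator, brain had 19 tags and liver cells 12, and 270,000 liver cells had 3. At Fntb, a subunit of protein farnesyltransferase, they had 18 and 13, and lung had 3. At the low end stood Ddx18, an RNA helicase, with 2 brain and 269 liver cell tags, Nectin2, an adhesion protein, with 0 and 260, and Tchp, a centrosomal protein, with 5 and 316, none of which passed 4 fold. Adprhl2, a hydrolase of ADP-ribose, had the highest level in both, with 62 brain and 341 liver cell tags. The endophilin genes Sh3gl1 and Sh3glb1 had 51 and 364, and 50 and 244. All 3 also held tags in lung, kidney, liver organ and 270,000 liver cells.

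Stop positions along the recognition sequence differed between brain and liver cells. At 721 distinct promoter matches outside the dense bins, brain held spread tags within 100 bp at 162 (22.5%, 19.6 to 25.7%) and liver cells at 322 (44.7%, 41.1 to 48.3%), and 2 and 42 did when moved by 5 kb. Brain and liver cells shared 160 of them, and brain held 2 that liver cells did not. Of promoter windows without a match, 2.76% held brain tags and 14.6% liver cell tags. Positions were counted along the strand of the match from its centre. In liver cells, stops on the opposite strand gathered in a narrow band 10 to 19 bp beyond the centre, with 175 spread peaks and 6437 tags. From 20 to 34 bp, 81 peaks and 1148 tags were found. In brain the order was turned, with 16 peaks and 86 tags in the band of 10 to 19 bp and 60 peaks and 282 tags from 20 to 34 bp. The nearer band thus held 68.4% (62.4 to 73.7%) of these peaks in liver cells and 21.1% (13.4 to 31.5%) in brain. The bands were chosen after the values were seen.

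**Figure D5:**
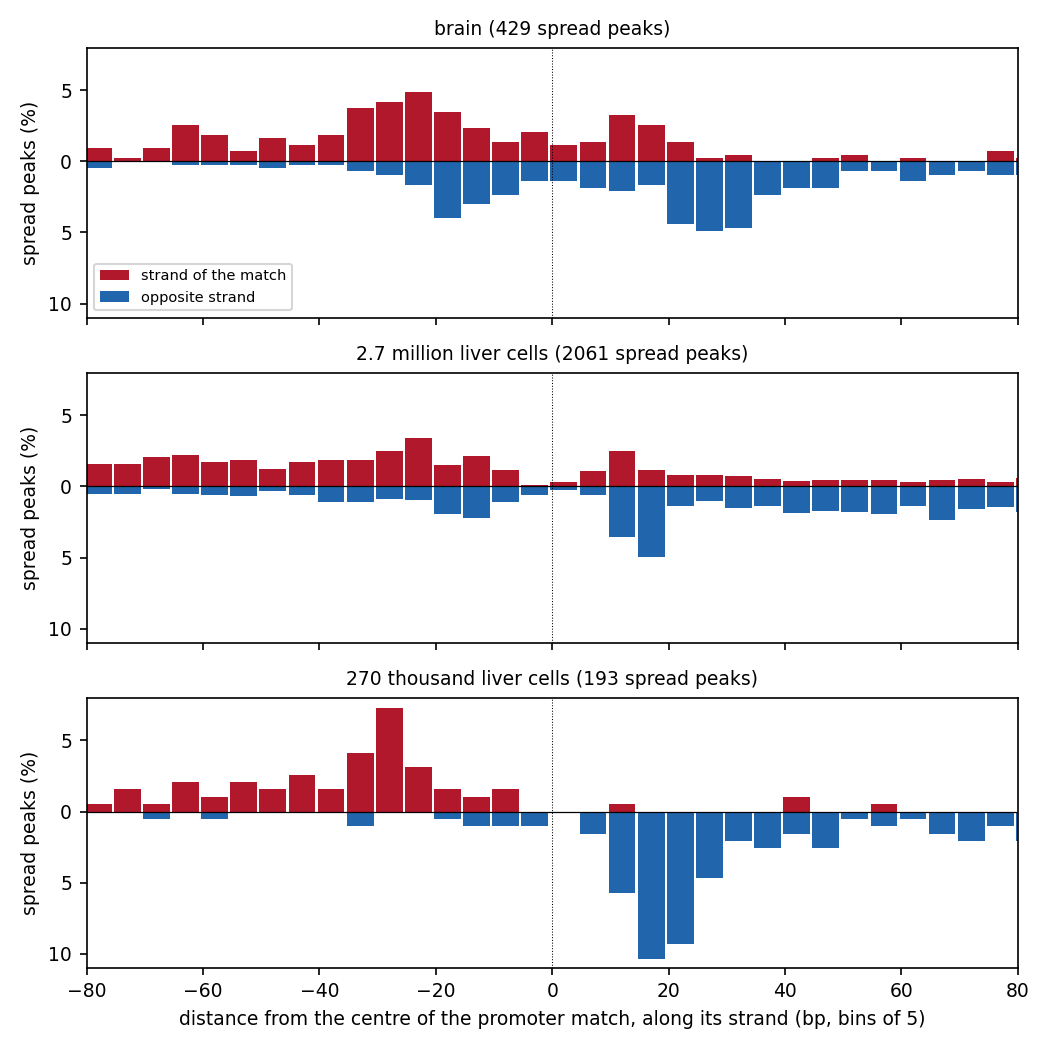
Spread peaks around 721 promoter matches in bins of 5 bp, as a percent of a library's peaks within 100 bp, for the strand of the match (red, up) and the opposite strand (blue, down). Opposite-strand stops of 2,700,000 liver cells crowd at 10 to 19 bp (175 peaks), those of brain at 20 to 34 bp (60 peaks), and 270,000 liver cells have 31 in each band.

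The difference held at the same promoters. At 70 matches both libraries had stops in these bands. At 37 of them brain had more tags in the farther band and liver cells in the nearer one, and at 3 the reverse. At the Rapgef1 promoter, shown above, the main opposite-strand stop beyond the centre was at 33 bp in brain, with 17 tags, and at 19 bp in liver cells, with 58. At Nsfl1c, in contrast, brain had a stop at 14 bp with 9 tags and liver cells at 16 bp with 23. At Adprhl2 the stops were at 22 bp in brain (13 tags) and 21 bp in liver cells (105 tags), and at Otud3 at 29 bp (3 tags) and 30 bp (20 tags). At Nectin2 the liver cells alone had a stop, at 14 bp with 149 of their tags. On the strand of the match, both libraries had stops from -35 to -16 bp, with 17.4% of brain tags and 12.8% of liver cell tags. Brain also had a larger share of tags on the opposite strand from -25 to -6 bp, with 191 of 1751 against 772 of 23612.

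The organ libraries had few stops in these bands. Lung had 5 of its 22 opposite-strand peaks in the nearer band (interval 10.1 to 43.4%), kidney 7 of 23 (15.6 to 50.9%), and liver organ 2 of 11 (5.14 to 47.7%). For 270,000 liver cells the count was 31 of 62 (37.9 to 62.1%), which overlaps the intervals of all 3 organs. With single-position peaks included, the shares were 22.8% in brain and 68.1% in liver cells, and 33.3% in lung, 37.5% in kidney, 33.3% in liver organ (17.2 to 54.6%) and 53.4% in 270,000 liver cells. At all sites with tags in both libraries, the position with most tags was -31 bp from the centre on the forward strand and 25 bp on the reverse strand in brain, against -20 bp and 21 bp in liver cells. By the number of peaks the libraries hardly differed there, with commonest positions of -22 and 20 bp in brain (42 bp apart) and -20 and 21 bp in liver cells (41 bp apart). These 10013 sites take their centres from the peaks themselves. At 3806 sites set by lung, kidney, liver organ and 270,000 liver cells the positions with most tags were -31 and 26 bp in brain and -20 and 20 bp in liver cells. Those with most peaks were 52 bp apart in brain and 42 bp in liver cells. The distance within pairs had a median of 43 bp in brain (quartiles 25 and 59) and 50 bp in liver cells (35 and 66). Spread peaks of 10 tags or more had a median standard deviation of 3.53 bp in brain and 4.76 bp in liver cells. It was 2.15 bp in lung, 3.33 bp in kidney, 3.38 bp in 270,000 liver cells and 4.51 bp in liver organ. The smallest liver cell library had 4.49 bp, from only 7 such peaks. Brain peaks were thus narrower than those of liver cells, but not than those of lung, kidney or 270,000 liver cells.

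Sites called higher in brain came from the lists of neuron and of hepatocyte genes alike, in small numbers. For each gene the strongest tested site in it or within 20 kb was taken. Over all 20665 protein-coding genes, 11568 had one, and it was higher in brain for 1241 (10.7%) and lower for 146 (1.26%), with a median log2 ratio 0.13 above the median of all sites. Of 24 neuron genes, 18 had a site, 4 (22.2%) were higher and none lower, with a median of 0.42. The higher ones were Nefl, a neurofilament subunit (31 brain and 157 liver cell tags), Slc17a7, a vesicular glutamate transporter (21 and 57), Grin2b, an NMDA receptor subunit (20 and 82), and Pvalb, a calcium buffer (18 and 72). Lung, kidney, liver organ and 270,000 liver cells had at most 7 tags at each of these. The strongest neuron sites after Nefl were not called, at Grin1 (5 and 317) and Camk2a (12 and 250). Of 24 hepatocyte genes, 14 had a site, and 3 (21.4%) were higher in brain and 1 (7.14%) lower. Apoa1 and Apoc3, apolipoproteins, share the site of 14 and 62 tags, and Cps1, a urea cycle enzyme, had 13 and 56. Ass1, another urea cycle enzyme, was lower, with 395 liver cell tags, 11 in 270,000 liver cells and none in brain or liver organ. Apob (7 and 273) and Tat (10 and 179) were not called.

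The other lists were small, and in those of other cell types and of transcription factors between 0 and 2 genes were called higher, and at most 1 lower. Of 12 glial genes with a site, Cx3cr1, a microglial chemokine receptor (20 and 100), and Pdgfra, a receptor of oligodendrocyte precursors (16 and 97), were higher, and Mbp (16 and 395), Slc1a3 (9 and 246) and Aldh1l1 (8 and 228) were not called. All 10 hepatocyte transcription factors had a site. Foxa3 (24 and 122) was higher in brain, and Hnf4a was lower, with 338 liver cell tags and no spread brain tags. Onecut1 (12 and 452) was not called. Of 5 brain transcription factors with a site none was called, and Neurod2 (41 and 332) came nearest to it, at 1.74. Sox2 (2 and 243) and Bcl11b (0 and 169) had few brain tags. Among 10 blood and immune genes Ptprc (13 and 62) and Clec4f (12 and 66) were higher, and the site shared by Hbb-bs and Hbb-bt (0 and 189) and that of Cd79a (9 and 229) were not called. Of 4 endothelial genes, Stab2 (21 and 47) was higher, and Cdh5, Pecam1 and Vwf had 6 to 8 brain and 191 to 202 liver cell tags.

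At loci where CTCF is known to set domain borders, 14 of 20 genes had a site, with a median log2 ratio 0.73 above that of all sites, and Dlk1, an imprinted gene (11 and 56), was the 1 called. Its direction was higher in brain. Shh (20 and 232), Lmbr1 (22 and 176), which holds the limb enhancer of Shh, and Epha4 (16 and 184), beside a well studied domain border, were not called. Among genes of CTCF and cohesin, Stag1, a cohesin subunit, was higher (25 and 93), and Ctcfl, the testis paralogue of CTCF (0 and 252), and Smc3 (2 and 182) were not called. Of widely expressed genes, Actb was higher (22 and 30) and Eef2 lower (0 and 333), and Rpl13a (22 and 158) and Ppia (0 and 196) were not called. The 36 clustered protocadherins with a site shared 4 sites, the strongest with 10 brain and 143 liver cell tags. The 22 Hox genes shared 5, the strongest with 2 and 182, near Hoxc10, Hoxc6 and Hoxc8. No member of these families was called in either direction.

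Tags away from sites gave little to compare. Spread tags more than 200 bp from any pair summed to 26185 in brain and 834161 in liver cells, 17.3% of spread tags in both. Over the 20665 protein-coding genes, 1250 reached 10 such scaled tags, of which 59 (4.72%) were more than 4 fold above the median ratio and 4 (0.32%) below it. Brain was under the floor in 638 of them. The highest were Gpn3 (12 brain and 0 liver cell tags), Misp3 (13 and 5), Zic4, a transcription factor of the cerebellum (11 and 4), Mettl5 (54 and 68) and Sox15 (13 and 10), followed by Cbr3, Crhr1, Frs3, Ptpn11 and Vipr1. The 4 lower genes were Robo2, Rbms3 and Gpc5, all over 1000000 bp long, and Mroh2a, with 0 to 3 brain tags and 314 to 347 liver cell tags. Of 24 neuron genes 6 were tested and none was called, and of 24 hepatocyte genes 2 were tested and none was called.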

How the data were processed

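CTCF ChIP-exo 5.0 peak lists of 7 mouse libraries were used, and brain was compared with 2,700,000 liver cells. The authors sequenced paired reads, aligned them, and removed PCR duplicates and alignments that were not unique, so repeated sequence loses tags. The submitters' processing notes name BWA 0.7.9a, bcl2fastq 2.16 and mm10, although the methods speak of yeast and human alignments. The authors deposited strand-specific peaks, nearly all 21 bp wide, with a count of tags per peak that is not normalized and the standard deviation of tag positions. Stop positions are centres of such smoothed peaks.

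Counts were scaled to 1032833 and 6592538 listed tags. Pairs (10 to 80 bp) of either library, strongest first and at least 200 bp apart, made the sites. Sites with 10 tags per 1000000 listed tags in either library were tested, levels under 3 tags were set to 3, and calls lay over 4 fold from the median ratio. Named sites were the 12 in each direction whose interval bound was farthest from the median, 1 for a protein-coding gene within 20 kb, the 6 with the highest lower level, the 3 strongest members of each of 12 gene lists, and for promoters 3 of each kind. Some of these are not reported here. The members and lists were chosen with earlier results of these data known. Genes (20665, protein-coding) and promoter windows were from RefSeq, GRCm38.p6. Calls, pairing and window sums were tested on simulated data. Unchanged sites were drawn there with more tags than most sites here, so the floor and the testing of sites through brain alone were hardly exercised. Alternatives covered scaling, single-position peaks, window, level, floor, site sources, bins and folds. Added after seeing the data were promoter matches, start distances, the other libraries at called sites, and site sets by brain or single-position tags. Work was done in Python 3.11.15 with pandas 2.3.3 and scipy 1.17.1, and plots in matplotlib 3.10.9.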

Additional observations from a re-analysis of the deposited data

How the results depend on the processing

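No paired analysis was possible because each side was 1 library without replicate numbers. Counts of sites higher and lower in brain were 1458 and 129, with a median log2 ratio of -2.08, which reversed to 0.65 when levels were scaled to spread tags. Under that scaling 2351 sites were higher and 514 lower. The median alone moved to -1.95 with scaling to kept tags, -2.03 with single-position peaks counted as 1 tag, -2.13 without bins of 10 or more peaks and -2.07 with no bin left out. With single-position peaks included it was -1.83 and 209 sites were lower. Windows of 50 bp gave -1.95 and 45 lower. Sites tested at 5 scaled tags gave -1.54 and 761 lower, and at 20 scaled tags -2.79, 865 higher and 6 lower. A floor of 2 tags gave -2.54 and 2298 higher, and a floor of 5 tags -1.54, 874 higher and 67 lower. Sites of the other 4 libraries gave -1.73, 276 higher and 182 lower of 3185 tested, and sites of brain pairs alone -0.72, 258 and 107 of 4103, so that higher and lower sites were less uneven than among all sites. Calls from equal scaled levels gave 158 higher and 9414 lower, and calls at 8 fold 498 and 2. Of the alternatives added later, sites without single-position peaks gave -2.13, 594 and 48 of 7503 tested, and sites with 3 or more brain tags -1.29, 644 and 274 of 8617. The direction of the imbalance, more sites higher than lower, turned only under calls from equal scaled levels. In the main set, sites tested through brain alone were higher by the calling rule and add to this imbalance.

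Sites near and away from a start of the promoter windows, which lack some starts, were higher in brain in 28.3% and 7.52% of cases. These shares were 24.6% and 8.53% scaled to spread tags, 18.9% and 4.40% with a floor of 5, 39.6% and 10.9% at 20 scaled tags, 35.6% and 11% with single-position peaks, 9.21% and 6.0% for brain pairs, 17.4% and 6.65% with 3 or more brain tags, and 6.96% away from starts for sites without single-position peaks. Sites near a gene end rose from 20.8% to 39.2% of the higher and from 6.98% to 23.3% of the lower sites at 5 kb. Brain spread peaks were matched in 17.0%, 33.5% and 70.0% within 2, 5 and 20 bp and in 65.9% for 5 or more tags, and liver cell spread peaks in 1.28%, 2.52%, 6.82% and 10.7%, against 4.19%. Genes off sites numbered 299 higher and 223 lower with all tags over the gene, 141 and 34 at 5 scaled tags, 13 and 0 at 20, and 573 and 96 scaled to spread tags. In all, 30 of 96 alternative values stayed within their bounds. The causes of these moves were not tested. Depth limits the lower direction most: brain was under the floor at 8594 of 17211 tested sites.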
